A study of Homo sapiens with 8 samples.

Results

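Newly made RNA of U2OS cells labelled as overexpressing MYC was compared with that of U2OS cells labelled WT, across all coding genes. U2OS is a human osteosarcoma cell line. The samples were chosen by their genotype label alone, 2 libraries labelled MYC O/E (MYC below) and 2 labelled WT, which are 4 of the 8 libraries of the series. The other groups carry the labels Zab and Zab + MYC O/E (MYC_Zab below), also with 2 libraries each. The assay was TT-seq, in which cells take up the base analogue 4-SU and the RNA made during that time is sequenced, so a level here is one of newly made RNA rather than of all RNA in the cell. The labels give no dose or time, and they do not say how MYC was expressed, whether the lines are single clones, or what the Zab construct is. Nothing in them says that replicates are separate cultures, and the p-values speak only for the spread among the libraries at hand, which could be technical. Of the 19414 coding genes in the files, 11985 had enough reads to be tested.

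MYC is a transcription factor of the basic helix-loop-helix leucine zipper family. It binds DNA as a pair with its partner MAX, most readily at the sequence CACGTG, known as the E-box, and is best known for raising the genes of ribosome production, nucleotide synthesis and cell growth. It is also reported to lower genes of cell adhesion and of growth arrest, in part by acting on other factors at their promoters. The title of the series links MYC to FACT, a histone chaperone made of SSRP1 and SUPT16H, and to Z-DNA, in which the double helix winds to the left. ADAR, an RNA-editing enzyme, carries the domain Zα, which binds Z-form nucleic acid.

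The targeted gene was checked first. MYC stood at 774 and 749 CPM in the libraries labelled WT, at 6575 and 6586 in MYC, at 934 and 1031 in Zab and at 748 and 769 in MYC_Zab, where CPM is the read count scaled to library size after TMM normalization. The libraries labelled MYC were thus 8.64-fold above WT, while those labelled MYC_Zab were near WT and go against their label. ADAR stood at 33822 and 33777 CPM in WT, 445 and 462 in MYC, 528 and 576 in Zab and 32123 and 32218 in MYC_Zab. The MYC and WT libraries therefore differed in ADAR by 74.5-fold as well as in MYC, and what moves with either gene cannot be told apart in this comparison. WT and MYC_Zab libraries differed by a mean chi-square per gene of only 2.71 to 2.81, near the 1.99 to 2.05 within groups. Whether labels were exchanged, or whether reads of the Zab construct were counted as ADAR, was not tested, so what the ADAR level of a library stands for is not known. Only the libraries labelled Zab share the low ADAR level of those labelled MYC, so values of MYC over Zab are set beside some of the main ones below. The Zab libraries differed in make-up too, with 6.44 and 6.66 coding reads per 100 tags against 13.1 to 13.8 in WT and MYC. They held 1839960 and 2097530 coding reads. The median log2 change of Zab over WT ran with gene span, from 0.37 up to 5 kb to -0.41 over 200 kb. How far this enters MYC over Zab was not tested. Both comparisons share the MYC libraries and are not independent. Because labels and levels disagree, groups are named by label alone throughout.

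MAX, the partner of MYC, rose from 164 and 140.0 CPM to 229 and 239, a log2 change of 0.63 ± 0.094 (SE from limma, here and below with 2 libraries a group). Of the FACT subunits, SSRP1 rose from 557 and 524 to 718 and 693 CPM, by 0.38 ± 0.050. SUPT16H was at 264 and 278 CPM in WT and 291 and 306 in MYC, and its change of 0.14 ± 0.079 did not pass the test (adjusted p = 0.158 by limma), though it did on the deposited scale described below, at 0.64. Against the libraries labelled Zab, the order of the FACT subunits was the other way round, with SUPT16H at 0.93 ± 0.079 and SSRP1 at -0.05 ± 0.050.

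The 4 libraries held 2706401 to 4072059 reads in coding exons and 13539 to 13712 genes with a read. Coding reads made up 13.1 to 13.8 of every 100 tags. Replicates of WT and of MYC differed by little more than counting error, with a chi-square per gene of 2.05 and 1.99 where reads mostly came in pairs, against 36.8 to 39.3 between a WT and a MYC library. A preparation sequenced again would give such replicate values too. Mesenchymal genes typical of this line were expressed, with VIM at 2378 and 2474 CPM in WT and 1803 and 1823 in MYC, and SPARC at 573 and 545 and 329.8 and 336. Over the 30 mesenchymal and skeletal genes the summed level was 4868 to 4916 CPM in WT and 4014 to 4070.2 in MYC, and 7 of them, among them SP7, TWIST1 and SOST, were at 0 in all 4 libraries. Markers of other cell types were also summed. The 12 epithelial markers summed to 1372 to 1405 CPM in WT and 869 to 906 in MYC, with KRT19, GRHL2 and OVOL1 at 0. Most of this sum came from 2 keratins, KRT18 at a mean of 815 CPM in WT and 613 in MYC and KRT8 at 559 and 267. The 12 blood markers summed to 54.3 to 70.2 and 16.3 to 19.9, mostly from CD68, LCP1 and CD33, with CD3E, LYZ and HBB at 0. The 8 endothelial markers reached at most 21.2 CPM, the 12 neural markers at most 245 and the 8 muscle markers at most 128. In bulk RNA, fewer cells of a type and less RNA per cell cannot be told apart.

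Newly made RNA differed across a large part of the genome. Of 11985 genes tested by limma, 5276 were called at an adjusted p under 0.05 (44.0%), and these divided almost evenly into 2663 higher (22.2%) and 2613 lower (21.8%) in the libraries labelled MYC. At least 2-fold were 790 of the higher genes (6.59%) and 1261 of the lower ones (10.5%). The deposited scale, described below, turns the order of these, with 2395 and 643. In 8816 genes (73.6%) the WT libraries did not overlap the MYC libraries. An exact permutation of 2 libraries against 2 cannot give a p below 0.333, so single genes rest on the fit across all genes. Counting each of the WT and MYC_Zab pairs as 1 sample gave 1864 higher and 1580 lower. The transcript counted for a gene was chosen library by library and differed among the 4 libraries for 4504 tested genes. These include MYC, MAX and ADAR. Of the rises named below they include OPRL1, PDE1B, SYT7, INSIG1, EPHA8, GABRA5, DNAAF3 and SLC1A3. Among the falls they include ESM1, IL1A, EDN1, TRIML2, NAV3, FN1 and TGM2. Of the falls named from the lists they include LAMB3, SERPINA1, OPTN, NRP1, CADM3, COL11A1, PLOD2, BDNF, ARNTL, ZNF185, CTSB, AKT1, SAT2, KDM6B, ERCC1, FOSL1 and MRPL24. Of the rises from the lists they include POLR3G, POLR1E, MRPS34, TOMM40, SLC25A22, SCARB1, SHMT2, DDX21, PSME3, ALG3, GATAD2A, CDK6, PER3, JUND and TFRC. CAMKV, KCTD12, THRA, MMP3 and CXCL8 had 1 transcript in these libraries. Among the 6415 genes with 1 transcript in all 8 libraries, 1669 were higher and 1394 lower.

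The even division rests on TMM scaling, under which the typical gene is level. The values as deposited keep a factor per library set by the authors, and no source used here gives its basis. On that scale the median gene stood 0.47 higher in MYC in log2 units, with 5838 genes higher and 1149 lower. With library totals the counts were 2391 and 2893, and with totals that leave out ADAR and MYC 2203 and 3147. A change below is therefore relative to the bulk of genes. List medians printed below that turn on the deposited scale are given with that value. Medians not printed below turned as well for some lists. They went from -0.12 to 0.32 for ion channels, -0.17 to 0.28 for G protein-coupled receptors and -0.16 to 0.29 for synaptic genes. Tubulins went from -0.04 to 0.45, the ERK list from -0.03 to 0.47, mesenchymal genes from -0.37 to 0.10 and neural markers from -0.28 to 0.21. Of the genes named below, the falls of ATP5PD, MRPL24, NDUFV2, PSME2, SLC7A11, SMS, SQSTM1, TAP1, IPO13 and VIM lost their call on that scale, with VIM at 0.077, and that of EEF1A1 turned. On the TMM scale KRT18 fell by about as much as VIM, at -0.41 against -0.42. Its value on the deposited scale is not given here, so its fall holds for the TMM scale only. MYC over Zab gave 3547 genes higher (29.6%) and 3202 lower (26.7%). Among the named genes, the direction turned and passed the test over Zab for CFL1, CYC1, ENO1, PYCR1, SHMT2, SLC7A11 and TUBA1B. Those called over WT that did not pass over Zab were CBX6, SREBF2, SSRP1, POLR2E, PLK1, ALG3, COLGALT1, FOXK1, HSP90AB1, JUND, NDUFV2, PCLO, SLC3A2, SMS, SRF, TEAD4 and BEX1. LCP1 and CD33 of the blood markers, called lower over WT, did not pass over Zab either. The change of MYC over WT differed from that of MYC_Zab over Zab in 6363 genes (53.1%), in a design where the libraries labelled MYC_Zab had the MYC level of WT.

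**Figure D1:**
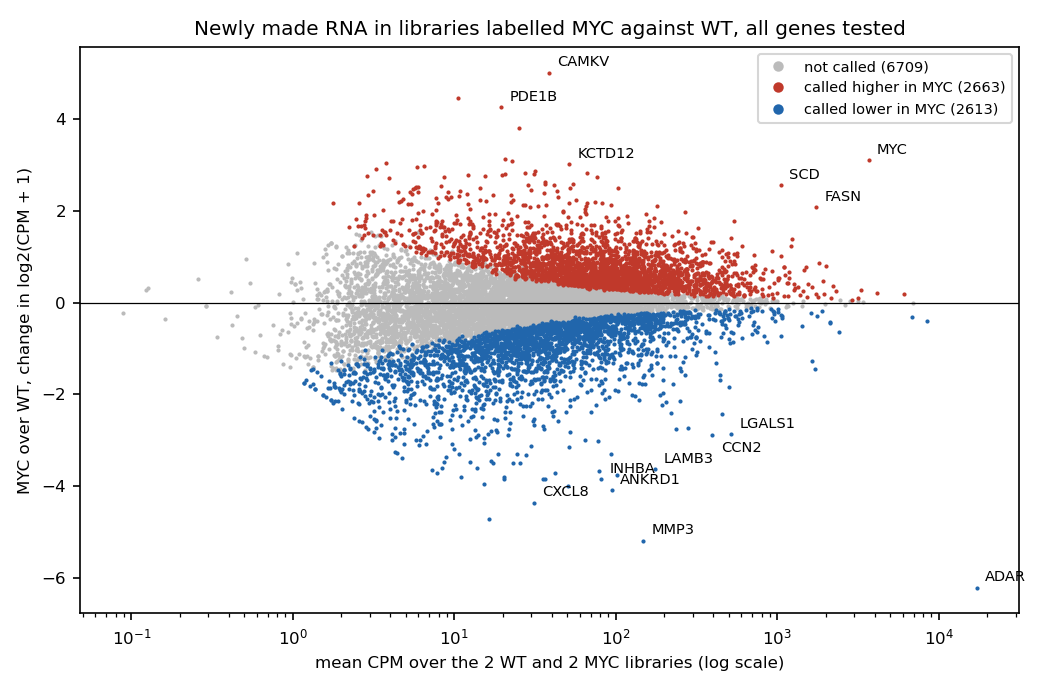
Change in log2(CPM + 1) of MYC over WT (vertical) against the mean CPM of the 4 libraries (horizontal, log scale), 1 point per gene tested, with called genes in red (2663 higher) and blue (2613 lower). Falls reach further than rises, MYC stands at the upper right at 3.11, and ADAR is the lowest and most abundant point at -6.22.

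The largest rises in the libraries labelled MYC, beside MYC itself, were led by CAMKV. CAMKV, a kinase-like protein of synapses, went from 1.29 and 1.43 CPM in WT to 72.3 and 78.9 in MYC, 55.6-fold higher. OPRL1, the nociceptin receptor, had 0 reads in both WT libraries and 20.1 and 22.2 CPM in MYC, at least 41.6-fold higher when WT is set at 3 reads over the group. PDE1B, a calmodulin-dependent phosphodiesterase, had 0.646 and 1.43 CPM in WT and 32.5 and 43.4 in MYC. In each of these 3 genes both MYC libraries lay above both WT libraries, as the choice of genes requires. The log2 change was 5.02 ± 0.45 for CAMKV and 4.27 ± 0.49 for PDE1B.

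A further such rise was of SYT7, a calcium sensor of vesicle fusion, from 3.55 and 3.21 to 37.4 and 37.7 CPM. KCTD12, an auxiliary subunit of GABA-B receptors, rose from 11.6 and 9.26 to 87.2 and 96.6 CPM and GABRA5, a GABA-A receptor subunit, from 9.05 and 4.99 to 58.1 and 54.5. The neural markers of the check above summed to between 223 and 245 CPM in WT and between 233 and 235 in MYC, with GFAP, ELAVL3 and DCX at 0. THRA, the thyroid hormone receptor alpha, rose from 22.3 and 10.7 to 108 and 125 CPM and SLC1A3, a glutamate and aspartate transporter, from 5.49 and 8.91 to 52.1 and 58.2. EPHA8, an ephrin receptor, rose from 0.646 and 0.713 to 13.9 and 10.8 CPM, SEMA3G, a semaphorin, from 1.29 and 0 to 8.26 and 14.1, and PDZRN3, a ubiquitin ligase, from 7.11 and 2.49 to 35.1 and 37.97. The last 2 rest on unequal WT libraries, with a log2 change of 2.82 for PDZRN3 that was 2.21 without WT replicate 2 and 3.42 without WT replicate 1, and of 2.96 for SEMA3G that was 2.36 and 3.56 and lost its call by DESeq2. DNAAF3, needed to assemble the dynein arms of cilia, rose from 4.20 and 8.19 to 48.5 and 48.6 CPM. INSIG1, which holds the sterol-sensing complex in the endoplasmic reticulum, rose from 2.91 and 5.34 to 42.6 and 40.4 CPM, 10.1-fold. Against Zab, whose ADAR level was as low as that of MYC, the log2 change was 6.26 for CAMKV, 4.18 for PDE1B and 2.87 for GABRA5, and smaller than over WT for INSIG1 at 1.66 and THRA at 1.63. CAMKV lies in hg19 on chromosome 3 at 49895422 to 49907339, minus strand, and SYT7 on chromosome 11 at 61281186 to 61348548, minus strand.

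Of the 15 largest falls, ADAR fell the most, by a log2 change of -6.22 ± 0.029. MMP3, the protease stromelysin, went from 301 and 276 CPM in WT to 5.68 and 8.38 in MYC, 40.99-fold lower (hg19 chromosome 11 at 102706532 to 102714340, minus strand). CXCL8, a chemokine that draws neutrophils, went from 61.1 and 59.1 to 1.55 and 2.47 CPM, 29.95-fold lower. ESM1, a proteoglycan released by endothelium, had 193 reads in WT and 2 in MYC, a ratio of 129.7 with a 95% exact counting interval of 35.4 to 1079. IL1A, an interleukin, had 90 and 2 reads, a ratio of 60.5 with an interval of 16.3 to 507. These intervals cover counting error only, and they are too narrow where reads come in pairs.

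ANKRD1, an ankyrin repeat protein and a known target of the YAP pathway, fell from 177 and 179.9 to 7.74 and 11.8 CPM. EDN1, the vasoconstrictor endothelin, fell from 26.5 and 32.4 to 1.55 and 0.493, and INHBA, the activin A subunit, from 151 and 154 to 8.26 and 11.3. COL5A1, a fibrillar collagen chain, fell from 63.99 and 73.4 to 4.90 and 2.96 CPM, IGFBP5, a binding protein of insulin-like growth factors, from 72.4 and 60.6 to 2.58 and 5.18, and NAV3, a neuron navigator, from 191 and 187 to 11.1 and 15.3. In all of these both MYC libraries lay below both WT libraries, as the choice of genes requires. SLFN5, a schlafen gene that answers interferon, fell from 95.7 and 95.5 to 3.61 and 6.90 CPM. The hair keratin gene KRT34 fell from 23.3 and 19.2 to 0.258 and 0.986 CPM. KRTAP2-3, which encodes a keratin-associated protein, fell from 43.3 and 34.2 to 2.06 and 1.48, and TRIML2 from 41.7 and 35.6 to 1.03 and 2.96 CPM. The level in Zab lay between WT and MYC for ANKRD1 (mean 62.8 CPM), INHBA (41.03) and MMP3 (137), but above both for CXCL8 (122) and IGFBP5 (113).

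**Figure D2:**
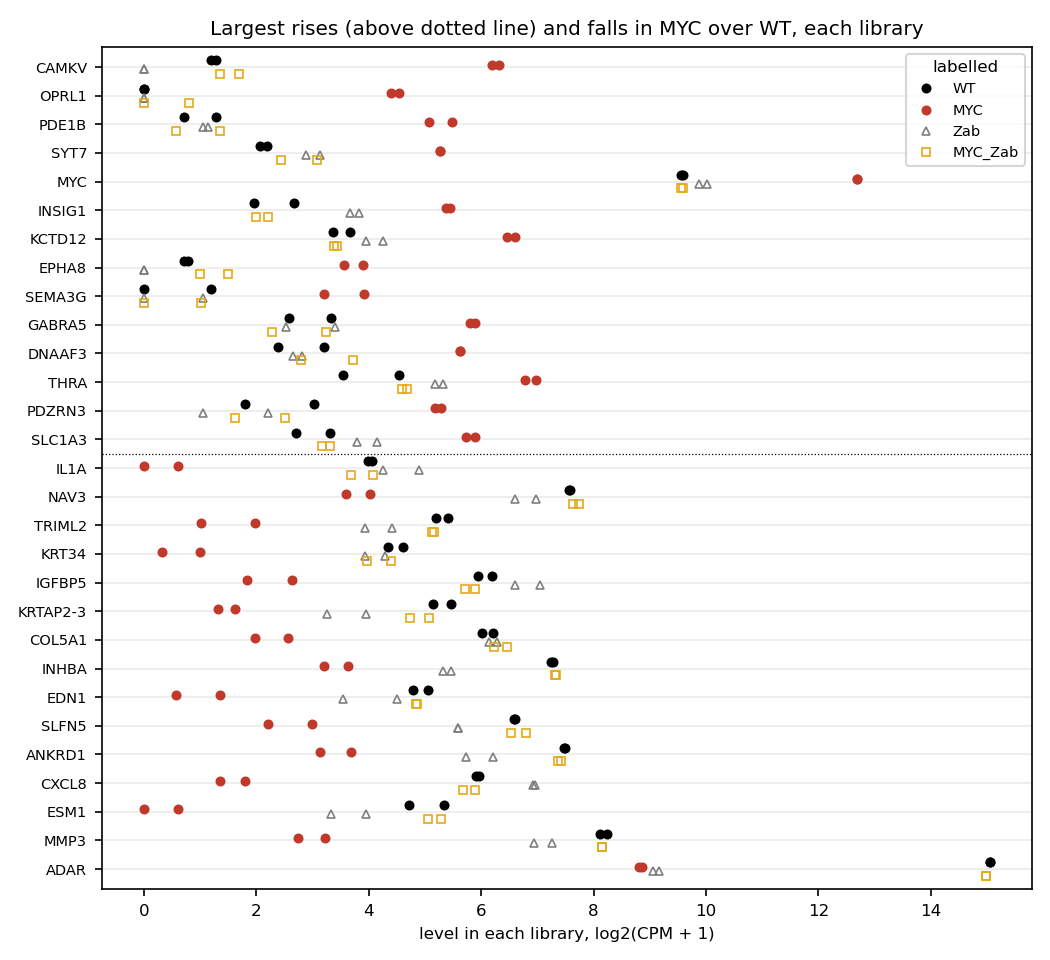
Level in log2(CPM + 1) in each of the 8 libraries for 14 of the 15 largest rises (above the dotted line) and the 15 largest falls of MYC over WT, WT in black, MYC in red, Zab as grey triangles and MYC_Zab as orange squares. MYC points lie apart from WT points in every row, as the choice of genes requires, and MYC_Zab squares lie close to WT circles, as for MMP3 at 282 and 282 CPM in MYC_Zab.

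Among genes of high level, with a mean of at least 200 CPM, the largest rises beside MYC were of SCD and FASN, both of lipid synthesis. SCD, the desaturase that makes oleic acid, went from 302 and 302 CPM in WT to 1783 and 1814 in MYC (log2 2.57 ± 0.053, adjusted p = 4.13e-24 by limma), and FASN, fatty acid synthase, from 649 and 672 to 2736 and 2874 (2.08 ± 0.041, adjusted p = 1.37e-24). DDIT4, an inhibitor of the growth kinase mTORC1, rose by 1.98 ± 0.097. Other rises were of membrane transporters, SLC6A8 for creatine at 1.64 ± 0.086 and SLC16A1 for lactate at 1.51 ± 0.088, and of USP36, a nucleolar deubiquitinase reported to stabilise MYC protein, at 1.57 ± 0.10. STARD7, a lipid transfer protein of mitochondria, rose by 1.47 ± 0.088 and ARC, a gene of neuronal activity, by 1.43 ± 0.088. CBX6, a Polycomb protein, stood apart from these. It went from 255 and 233 CPM in WT to 843 and 835 in MYC, but was at 828 and 762 in Zab, so that MYC over Zab was 0.08 ± 0.060 (adjusted p = 0.277 by limma).

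Among the falls at high level, CCN2, the connective tissue growth factor, went from 697 and 701 CPM to 95.2 and 92.2 (log2 -2.89 ± 0.062, adjusted p = 8.35e-24 by limma), and LGALS1, the lectin galectin-1, from 898 and 928 to 122 and 127 (-2.87 ± 0.049). FN1, fibronectin, fell from 403 and 425 to 58.1 and 63.4 CPM and THBS1, thrombospondin, from 499 and 478 to 70.2 and 74.2. TGM2, which cross-links matrix proteins, fell by 2.14 ± 0.072 and AXL, a receptor tyrosine kinase, fell by 1.83 ± 0.051. KRT81, a hair keratin, and SMTN, smoothelin of contractile cells, fell, with log2 changes of -2.44 ± 0.053 and -2.17 ± 0.078. Levels in the libraries labelled Zab were at or above WT for most of these, with a mean of 691 CPM for CCN2, 1565 for LGALS1 and 1327 for TGM2. Of the most abundant genes, EEF1A1, the translation elongation factor, fell by 0.30 ± 0.019 though its change on the deposited scale was 0.19, and ENO1, of glycolysis, rose by 0.22 ± 0.023 but was lower over Zab, at -0.57. The chaperone HSP90AB1 and the RNA-binding protein YBX1 rose by 0.19 ± 0.021 and 0.29 ± 0.030.

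The promoters of 6 of these and related genes are shown since their letters include the motifs counted below. Each is the 250 bases before the RefSeq start site in the build GRCh38.p14, 5′ to 3′ on the strand of the gene, with the motif in capitals. INSIG1 (chr7:155297628-155297877, plus strand) and USP36 (chr17:78840815-78841064, minus strand) hold the E-box CACGTG, the first starting 55 and the second 27 bases before the start site. SREBF2 (chr22:41832855-41833104, plus strand), which encodes the master regulator of sterol synthesis, holds the sterol element known from the LDL receptor gene, also in capitals.
INSIG1: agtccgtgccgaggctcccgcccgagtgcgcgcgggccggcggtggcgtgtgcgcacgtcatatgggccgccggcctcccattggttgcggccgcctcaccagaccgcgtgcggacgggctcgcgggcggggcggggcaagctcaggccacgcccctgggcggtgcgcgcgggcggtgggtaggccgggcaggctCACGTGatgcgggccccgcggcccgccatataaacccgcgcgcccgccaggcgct
USP36: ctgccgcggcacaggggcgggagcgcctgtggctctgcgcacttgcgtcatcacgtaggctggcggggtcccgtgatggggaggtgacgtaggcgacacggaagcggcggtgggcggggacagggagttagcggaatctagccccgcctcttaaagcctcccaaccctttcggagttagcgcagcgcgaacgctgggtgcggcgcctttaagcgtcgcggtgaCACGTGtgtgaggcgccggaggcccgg
SREBF2: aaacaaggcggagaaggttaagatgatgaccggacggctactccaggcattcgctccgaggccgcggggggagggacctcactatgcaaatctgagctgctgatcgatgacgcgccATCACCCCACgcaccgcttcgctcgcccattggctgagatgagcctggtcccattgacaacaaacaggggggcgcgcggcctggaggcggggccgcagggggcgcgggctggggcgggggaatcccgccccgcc
Of the genes that fell, CXCL8 (chr4:73740319-73740568, plus strand) and ANKRD1 (chr10:90921088-90921337, minus strand) hold TGANTCA, a loose form of the AP-1 motif. The AP-1 motif has C or G at the base N, as in CXCL8, while ANKRD1 has T there. ANKRD1 and CCN2 (chr6:131951373-131951622, minus strand) hold GGAATG, the core of the TEAD motif, 2 and 3 times.
CXCL8: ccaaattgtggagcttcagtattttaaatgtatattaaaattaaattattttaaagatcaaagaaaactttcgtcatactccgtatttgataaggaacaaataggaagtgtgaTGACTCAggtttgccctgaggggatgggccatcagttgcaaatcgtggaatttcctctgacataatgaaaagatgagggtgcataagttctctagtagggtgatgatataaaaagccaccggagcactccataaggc
ANKRD1: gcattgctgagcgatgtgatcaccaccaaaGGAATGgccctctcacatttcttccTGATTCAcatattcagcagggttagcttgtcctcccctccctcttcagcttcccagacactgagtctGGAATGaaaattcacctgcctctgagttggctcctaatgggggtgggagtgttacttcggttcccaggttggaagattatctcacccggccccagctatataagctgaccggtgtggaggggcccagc
CCN2: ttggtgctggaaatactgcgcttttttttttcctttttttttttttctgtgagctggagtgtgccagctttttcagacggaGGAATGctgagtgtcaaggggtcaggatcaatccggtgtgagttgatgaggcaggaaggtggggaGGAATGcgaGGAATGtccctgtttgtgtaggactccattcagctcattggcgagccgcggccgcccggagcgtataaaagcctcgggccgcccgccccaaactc
A match is only a run of letters and was not shown to be bound here.

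Counted over the promoter windows of RefSeq, which span 250 bases before to 50 after the start, motif shares of genes that rose and of genes that fell are set side by side. Windows were found for 9707 of the tested genes, 2149 called higher and 2120 called lower. CACGTG was in 10.3% of all tested windows, in 13.9% of those of genes that rose and in 7.5% of those that fell. TGANTCA, counted with any base at N and so wider than the AP-1 motif, ran the other way. It was in 4.4% of all, 3.49% of risen and 6.79% of fallen genes, and in 9.44% of those that fell at least 2-fold. GGAATG was in 8.84% of risen and 11.6% of fallen genes (10.7% of all), and the TATA box TATAAA in 5.17% and 6.18% (5.39%). CGCGCG was in 35.6% of risen against 25.4% of fallen genes (29.1%), and the median GC content was 67.7% against 65%. Runs of alternating G and T over 10 bases were rare, at 0.931% and 0.566% (0.639%). The sterol element was in only 3 of the 9707 windows, 2 of the 2149 risen and 1 of the 2120 fallen genes, too few to compare. A loose form of the NF-κB motif was in 75.5% of risen and 73.6% of fallen genes (73.8%). Both strands were searched, matches of different motifs may overlap, and shares of a motif that is rich in G and C move with GC content. These shares are descriptions of the lists, with no test.

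Lists of lipid supply gave more rises than falls. Over all genes tested 22.2% were called higher and 21.8% lower, and the list counts here and below stand against these shares. Of 24 tested genes of fatty acid synthesis and desaturation, FASN and SCD among them, 13 were called higher and 4 lower, with a median log2 change of 0.41 where all tested genes had -0.01. ACLY, which makes cytosolic acetyl-CoA, rose from 451 and 493 to 969 and 967 CPM, by 1.04 ± 0.052. In sterol sensing, uptake and export, 6 of 18 rose and 3 fell. SCARB1, the receptor for high-density lipoprotein, rose by 1.54 ± 0.11 and SREBF2 by 1.01 ± 0.082, but MYC over Zab was -0.05 for SREBF2. NPC1 and NPC2, which carry cholesterol out of lysosomes, both fell, with log2 changes of -1.21 ± 0.18 and -1.96 ± 0.13, and NPC2 went from 115 and 146 to 30.7 and 34.5 CPM.

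Of the amino acid transporters 12 rose of 23 against 4 that fell (median 0.41). SLC7A5 and SLC3A2, which form the main importer of large neutral amino acids, rose by 1.38 ± 0.044 and 0.66 ± 0.067. SLC1A4, a carrier of alanine, serine and cysteine, and SLC7A11, the cystine importer, fell, with log2 changes of -1.37 ± 0.14 and -0.72 ± 0.12, but SLC7A11 was higher over Zab, at 0.63. Of 28 genes of serine, one-carbon, asparagine and glutamine synthesis, 12 rose and 3 fell (median 0.22), but in MYC over Zab the counts were 9 and 10 (median -0.04). PYCR1 of proline synthesis, MAT2A, which makes the methyl donor S-adenosylmethionine, and SHMT2 of mitochondrial glycine synthesis rose by 0.63 ± 0.063, 0.63 ± 0.080 and 0.42 ± 0.062. Against Zab, PYCR1 stood at -0.30 and SHMT2 at -0.28. In the polyamine list 6 of 15 rose, among them ODC1, the first enzyme of the pathway, at 0.77 ± 0.042, and 4 fell, with SAT2, an acetyltransferase, at -1.90 ± 0.31 and spermine synthase SMS at -0.56 ± 0.092. In MYC over Zab, 4 polyamine genes were higher and 6 lower.

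Genes of mitochondrial protein import and of the mitochondrial ribosome were mostly higher among those called, while those of the respiratory chain gave near equal counts. All 16 called genes of the 24 tested for mitochondrial protein import were higher and 0 lower (0 also at an unadjusted p under 0.05 by limma, and by edgeR and DESeq2), with a median of 0.48. The import pore TOMM40 rose from 234 and 241 to 451 and 431 CPM, its receptor TOMM22 from 236 and 243 to 444 and 446 and the inner membrane subunit TIMM50 from 148 and 171 to 306 and 299. Of the mitochondrial ribosome's 77 genes, 30 rose and 3 fell (median 0.32), with MRPS34 at 1.28 ± 0.11, MRPS27 at 1.11 ± 0.095 and MRPL24 at -0.65 ± 0.11. Carriers of the SLC25 family gave 12 rises and 1 fall among 36, led by the glutamate carrier SLC25A22 at 1.69 ± 0.16. Their median of 0.008 was close to that of all genes, and 36.1% were called against 44.0% of all genes. The 74 nuclear-encoded subunits of oxidative phosphorylation gave 13 rises and 10 falls with a median of 0.03, close to all genes. Among them cytochrome c1, CYC1, rose by 0.67 ± 0.056 and ATP synthase subunit ATP5F1B by 0.51 ± 0.048, though CYC1 was lower over Zab, at -0.29, while ATP5PD and the complex I subunit NDUFV2 fell, with log2 changes of -0.71 ± 0.11 and -0.60 ± 0.12.

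Lists of genes that make and handle RNA gave more rises than falls, though shares called differed among them. Of all genes tested 44.0% were called. The share was below that for RNA modification enzymes (30.7%), Integrator (21.4%) and the polymerase II list (42.1%). It was above it in the others, from 54% of helicases to 63.3% of splicing genes. Of 19 subunits of RNA polymerases I and III, which transcribe ribosomal and transfer RNA, 11 rose and 0 fell (0 also at an unadjusted p under 0.05 by limma, and by edgeR and DESeq2), with a median of 0.46. POLR3G, a polymerase III subunit typical of growing and embryonic cells, went from 21.7 and 14.6 to 85.2 and 82.8 CPM, and POLR1E from 188 and 188 to 319 and 319.8. Polymerase II and its pausing and elongation factors gave 13 rises and 3 falls among 38 (median 0.05), with the largest subunit POLR2A at 0.74 ± 0.083 and POLR2E at 1.0 ± 0.10. POLR2E was -0.07 in MYC over Zab. The Integrator complex gave 2 and 1 of 14.

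Splicing genes gave the most rises of any list, 47 of 79 against 3 that fell (median 0.34). HNRNPH1 and HNRNPA2B1, which bind nascent transcripts, rose by 0.97 ± 0.069 and 0.54 ± 0.040, and PRPF8, at the heart of the spliceosome, by 0.54 ± 0.046. HNRNPA2B1 went from 953 and 973 to 1395 and 1408 CPM. RNA helicases of the DEAD and DEAH kinds gave 22 rises and 5 falls among 50, the nucleolar DDX21 at 0.68 ± 0.052 against DDX58, the viral RNA sensor RIG-I, at -1.81 ± 0.35. Enzymes that modify tRNA, rRNA and mRNA gave 18 and 5 of 75, with the demethylase ALKBH5 at 0.98 ± 0.083 and the methyltransferase NSUN2 at 0.80 ± 0.087. Nuclear pore proteins and karyopherins gave 31 and 2 of 56 (median 0.28), where the export receptors XPO5 and XPO1 rose by 0.81 ± 0.076 and 0.60 ± 0.065 and the import receptor IPO5 by 0.87 ± 0.099. The import receptor IPO13 fell by 0.68 ± 0.13, from 89.2 and 83.01 to 49.8 and 56.9 CPM.

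Lysosomal and autophagy genes gave more falls than rises on the TMM scale. Of 54 lysosomal genes 7 rose and 27 fell, a median of -0.39 that turns to 0.10 on the deposited scale. CTSB, the protease cathepsin B, went from 198 and 199 to 88.2 and 105 CPM and GRN, progranulin, from 113 and 118 to 53.9 and 57.4, while LAMP1, a lysosomal membrane protein, rose by 0.63 ± 0.082. Of 36 autophagy genes 3 rose and 15 fell (median -0.25, 0.23 on the deposited scale). The largest falls named were of the cargo receptor OPTN, from 40.7 and 50.2 to 6.45 and 8.38 CPM, and of GABARAPL1, which coats autophagosomes, from 86.6 and 99.8 to 21.9 and 21.4. SQSTM1, the receptor p62, fell by 0.59 ± 0.066.

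Proteasome subunits gave 7 rises and 17 falls among 46 (median -0.11, 0.39 on the deposited scale), but 15 and 16 in MYC over Zab. PSME1 and PSME2, the interferon-induced activator, fell, with log2 changes of -0.97 ± 0.14 and -0.79 ± 0.16, while the nuclear activator PSME3 rose by 0.51 ± 0.066. Chaperonins and prefoldins gave 8 and 2 of 18 (median 0.14), with the mitochondrial chaperone TRAP1 at 0.72 ± 0.071. In the secretory pathway, coat, translocon and signal peptidase genes gave 12 and 16 of 65 (median -0.15, 0.34 on the deposited scale), with the coat protein SEC24D, which packs collagen among other cargo, at -1.47 ± 0.15. N-linked glycosylation gave 8 and 11 of 44 (median -0.13, 0.37 on the deposited scale), with PMM1 at -1.22 ± 0.21 and ALG3 at 0.77 ± 0.13.

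**Figure D3:**
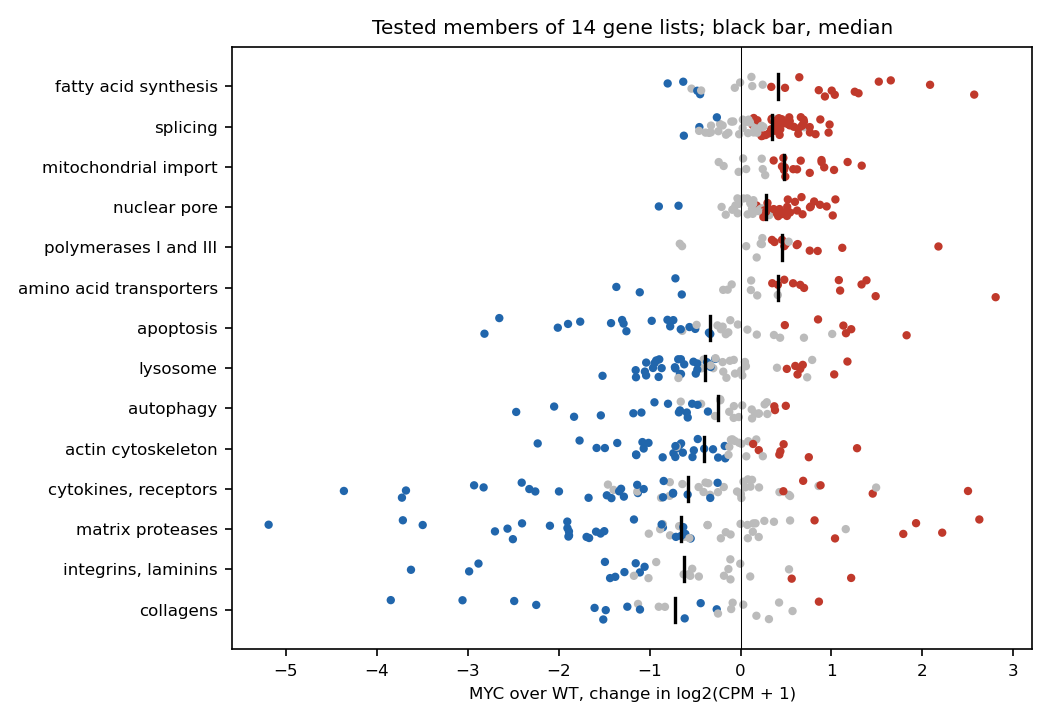
Change in log2(CPM + 1) of MYC over WT for each tested member of 14 gene lists (1 point per gene, red called higher, blue called lower, grey not called), with a black bar at each list's median. No member of mitochondrial import was called lower, and its median is 0.48, while collagens spread down to -3.85 around a median of -0.72.

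Lists of the extracellular matrix gave more falls than rises. Of 24 tested collagen chains 1 rose and 12 fell, a median of -0.72 and of -0.28 on the deposited scale. COL6A2, of the beaded filaments around cells, fell from 80.1 and 102 to 25.03 and 33.8 CPM and COL11A1, a fibrillar chain of cartilage, from 26.5 and 29.6 to 2.06 and 2.96. Enzymes that modify collagen and genes of elastic fibres gave 3 rises and 14 falls among 28 (median -0.35, 0.10 on the deposited scale). LOXL2 and PLOD2, which cross-link and hydroxylate collagen lysines, fell, with log2 changes of -2.09 ± 0.17 and -1.32 ± 0.16, while COLGALT1, which adds galactose to collagen, rose by 0.95 ± 0.075. Glycoproteins and proteoglycans, the list that holds CCN2, FN1 and THBS1, gave 2 and 14 of 32 (median -0.60), and CCN3, related to CCN2, rose by 1.70 ± 0.35.

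Matrix proteases, the plasminogen system and their inhibitors gave 6 rises and 26 falls among 55 (median -0.65, -0.20 on the deposited scale). SERPINA1, the inhibitor of neutrophil elastase, fell from 80.1 and 78.4 to 6.97 and 3.70 CPM. TIMP3, an inhibitor of metalloproteases held in the matrix, rose from 6.46 and 13.5 to 65.5 and 61.1, and the membrane protease MMP15 from 7.76 and 4.99 to 26.3 and 26.9. Among integrins, laminins and nidogens, 2 rose and 10 fell of 27 (median -0.63). LAMB3, a chain of the laminin that anchors epithelia, went from 310.3 and 338 to 28.9 and 22.2 CPM, and the integrin chains ITGA3 and ITGA2 from 379 and 370.2 to 138 and 127 and from 119 and 112 to 16.5 and 11.3. LAMC3 rose by 1.22 ± 0.25. Against Zab the counts of rises and falls were 2 and 11 for collagens, 11 and 28 for proteases and 5 and 12 for integrins and laminins. The summed epithelial markers, mostly KRT18 and KRT8, moved the same way on the TMM scale, as given above, and their part in these falls was not tested.

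The actin cytoskeleton was lower by count. Of 45 genes 7 rose and 26 fell (median -0.40, 0.10 on the deposited scale), and in MYC over Zab 4 and 33. FLNA, the actin cross-linker filamin A, went from 2889.6 and 2966 to 1907 and 1864 CPM and MYL6, a myosin light chain, from 224 and 247 to 68.1 and 68.5. SRF, the transcription factor that drives many actin genes, rose by 1.28 ± 0.11, and the actin-severing CFL1 by 0.44 ± 0.042. Over Zab CFL1 was lower, at -0.44, and SRF did not pass the test, at 0.14 (adjusted p = 0.308 by limma). Tubulins and their folding cofactors gave 13 and 9 of 35, with TUBA1B at 0.48 ± 0.034 and TUBB6 at -0.79 ± 0.052. Over Zab the tubulin counts were 9 and 18, and TUBA1B was at -0.20.

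Axon guidance genes gave 10 rises and 21 falls among 52 (median -0.48, -0.04 on the deposited scale). NRP1, a receptor for semaphorins and vascular growth factor, fell by 2.24 ± 0.13 and PLXNA2, a plexin, fell by 3.30 ± 0.23, while the ephrin EFNA3 rose from 8.40 and 6.41 to 36.9 and 37.5 CPM. Cadherins, protocadherins and junction proteins gave 11 and 18 of 80 (median -0.57, -0.12 on the deposited scale). CADM3 fell by 3.33 ± 0.25, whereas NECTIN1 and the gap junction protein GJA1 rose by 1.79 ± 0.15 and 1.57 ± 0.17.

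Signalling lists differed in direction. Of 29 genes of the YAP and TEAD pathway and its reported targets, 3 rose and 13 fell (median -0.21, 0.28 on the deposited scale), with CCN1 at -1.59 ± 0.063 beside CCN2 and AXL, and the DNA-binding partner TEAD4 higher by 0.67 ± 0.094. TGF-beta, activin, BMP and ID genes gave 12 rises and 15 falls among 50. In that list LTBP2, which binds latent TGF-beta, fell by 2.22 ± 0.12, while GDF15, a stress-induced hormone, and SKI, which restrains SMAD factors, rose by 1.87 ± 0.14 and 1.38 ± 0.12. Growth factors and receptor tyrosine kinases gave 6 and 19 of 45 (median -0.37, 0.11 on the deposited scale), where the neurotrophin BDNF fell from 65.3 and 59.1 to 6.71 and 11.3 CPM and FGFR4 rose from 20.4 and 24.2 to 57.03 and 64.6. Cytokines and their receptors gave 5 and 25 of 59 (median -0.58, -0.14 on the deposited scale). IL7R, the interleukin-7 receptor, fell from 143 and 151 to 11.4 and 9.86 CPM and TNFRSF12A, the receptor of TWEAK, from 355 and 376 to 137 and 135, and SOCS1, which blocks cytokine signalling, rose from 0.646 and 1.43 to 9.81 and 10.8. The blood markers were lower in MYC than in WT as well, though LCP1 and CD33 did not pass over Zab. The part of these markers was not tested.

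WNT and NOTCH genes gave more rises than falls over WT. In MYC over Zab the counts were 12 and 10 for WNT and 8 and 8 for NOTCH. In the WNT list 16 of 46 rose and 7 fell (median 0.21), among them the antagonist SFRP1, from 20.7 and 21.4 to 86.4 and 73.7 CPM, and the ligand WNT10B, from 17.5 and 19.95 to 58.1 and 61.9. LRP5, a co-receptor, and DKK3 fell, with log2 changes of -1.19 ± 0.19 and -1.53 ± 0.17. In the NOTCH list 9 of 24 rose and 5 fell (median 0.25), with the receptors NOTCH2 and NOTCH1 at 1.0 ± 0.065 and 0.98 ± 0.11, the ligand JAG1 at -0.91 ± 0.14 and the co-activator MAML2 at -2.58 ± 0.39. ERK phosphatases, Sprouty genes and ETV factors gave 12 and 13 of 43, with the AP-1 members FOSL1 and FOSL2 at -1.35 ± 0.089 and -1.57 ± 0.088 and JUND at 1.26 ± 0.13. Genes of PI3K, AKT, mTOR and amino acid sensing gave 5 and 13 of 42 (median -0.12, 0.36 on the deposited scale), where the kinase AKT1 fell by 0.99 ± 0.12 and RPTOR, a subunit of mTORC1, rose by 1.31 ± 0.10. In MYC over Zab this list gave 13 rises and 14 falls.

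Channels, receptors and synaptic genes gave rises and falls in each list. Synaptic genes gave 11 rises and 12 falls among 62, with the vesicle protein SYP lower, from 14.9 and 19.2 to 1.03 and 0.493 CPM, and the active zone protein PCLO lower, at -1.47 ± 0.11. In MYC over Zab, 18 synaptic genes rose and 11 fell. Ion channels gave 15 and 23 of 81, with the stretch-gated PIEZO1 lower, at -0.74 ± 0.084. G protein-coupled receptors and regulators of G protein signalling gave 13 and 20 of 84, where RGS16 rose from 20.4 and 17.8 to 93.7 and 95.4 CPM and RGS2 fell from 27.1 and 31.00 to 3.10 and 3.20.

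Both cell cycle lists gave more rises than falls. Of 41 G1 cyclins, kinases, inhibitors, E2F and RB genes 14 rose and 6 fell, with CCND1 and CCND2, the D cyclins, at 1.21 ± 0.077 and 1.23 ± 0.043, the kinase CDK6 at 1.04 ± 0.076 and the repressor E2F7 at -1.28 ± 0.15. Kinesins, kinetochore and checkpoint genes gave 28 and 10 of 91, with the mitotic kinase PLK1 at 1.09 ± 0.087 over WT and 0.01 over Zab. DNA repair gave 16 and 14 of 74, with the uracil glycosylase UNG at 1.42 ± 0.13 and ERCC1, a nuclease subunit, at -0.98 ± 0.10. The share of repair genes called, 40.5%, was near the 44.0% of all genes. In MYC over Zab, 32 repair genes were higher and 10 lower. Remodelling complexes gave 20 and 7 of 62, with GATAD2A of the NuRD complex at 1.32 ± 0.075 and its fellow subunit MTA1 at -1.09 ± 0.13. Enzymes that modify histones gave 26 and 21 of 106, with SETD7 at 1.42 ± 0.13 and KDM6B, which removes the Polycomb mark, at -1.11 ± 0.13.

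Transcription factor families and genes with ZNF symbols showed no common direction. The ZNF lists were drawn by symbol, so a member such as ZNF185 need not be a transcription factor. Of the zinc finger ZNF genes on chromosome 19, 19 of 172 rose and 6 fell, and elsewhere 39 and 22 of 220, with ZNF704 at 1.97 ± 0.20 and ZNF185 at -3.14 ± 0.17. The shares called, 14.5% on chromosome 19 and 27.7% elsewhere, were below the 44.0% of all genes. Against Zab the counts were 59 and 15 on chromosome 19 and 78 and 32 elsewhere. The SOX, FOX, KLF and related families gave 17 and 15 of 65, with FOXK1 at 0.91 ± 0.058 and TBX3 at -1.91 ± 0.17, and HOX genes 1 and 4 of 22. In MYC over Zab these families gave 15 and 18, and HOX genes 2 and 2. Circadian clock genes changed on both sides, 9 higher and 7 lower of 22. The repressors NR1D1 and PER3 rose by 1.35 ± 0.16 and 1.71 ± 0.23, and the activator ARNTL, also called BMAL1, fell from 28.8 and 35.98 to 3.35 and 4.44 CPM.

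Survival and stress genes were mixed. Of 39 genes of the BCL2 family, death receptors and inhibitors of apoptosis, 6 rose and 18 fell (median -0.33, 0.16 on the deposited scale). The pro-survival genes BCL2L1 and MCL1 fell, with log2 changes of -1.76 ± 0.076 and -0.74 ± 0.066, and BIRC5, survivin, and CYCS, cytochrome c, rose by 1.16 ± 0.099 and 0.85 ± 0.073. BCL2L1 went from 351 and 353 to 102 and 104 CPM. NRF2 targets and genes of glutathione, thioredoxin and iron gave 13 and 8 of 41, in which the iron importer TFRC rose by 1.02 ± 0.11 while ferritin heavy chain FTH1 and haem oxygenase HMOX1 fell, with log2 changes of -1.27 ± 0.034 and -2.23 ± 0.087. MHC class I presentation gave 4 and 8 of 21 (median -0.19, 0.31 on the deposited scale), with the peptide transporter TAP1 at -0.78 ± 0.16 and ULBP2, a ligand of natural killer cells, at -2.77 ± 0.32.

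**Figure D4:**
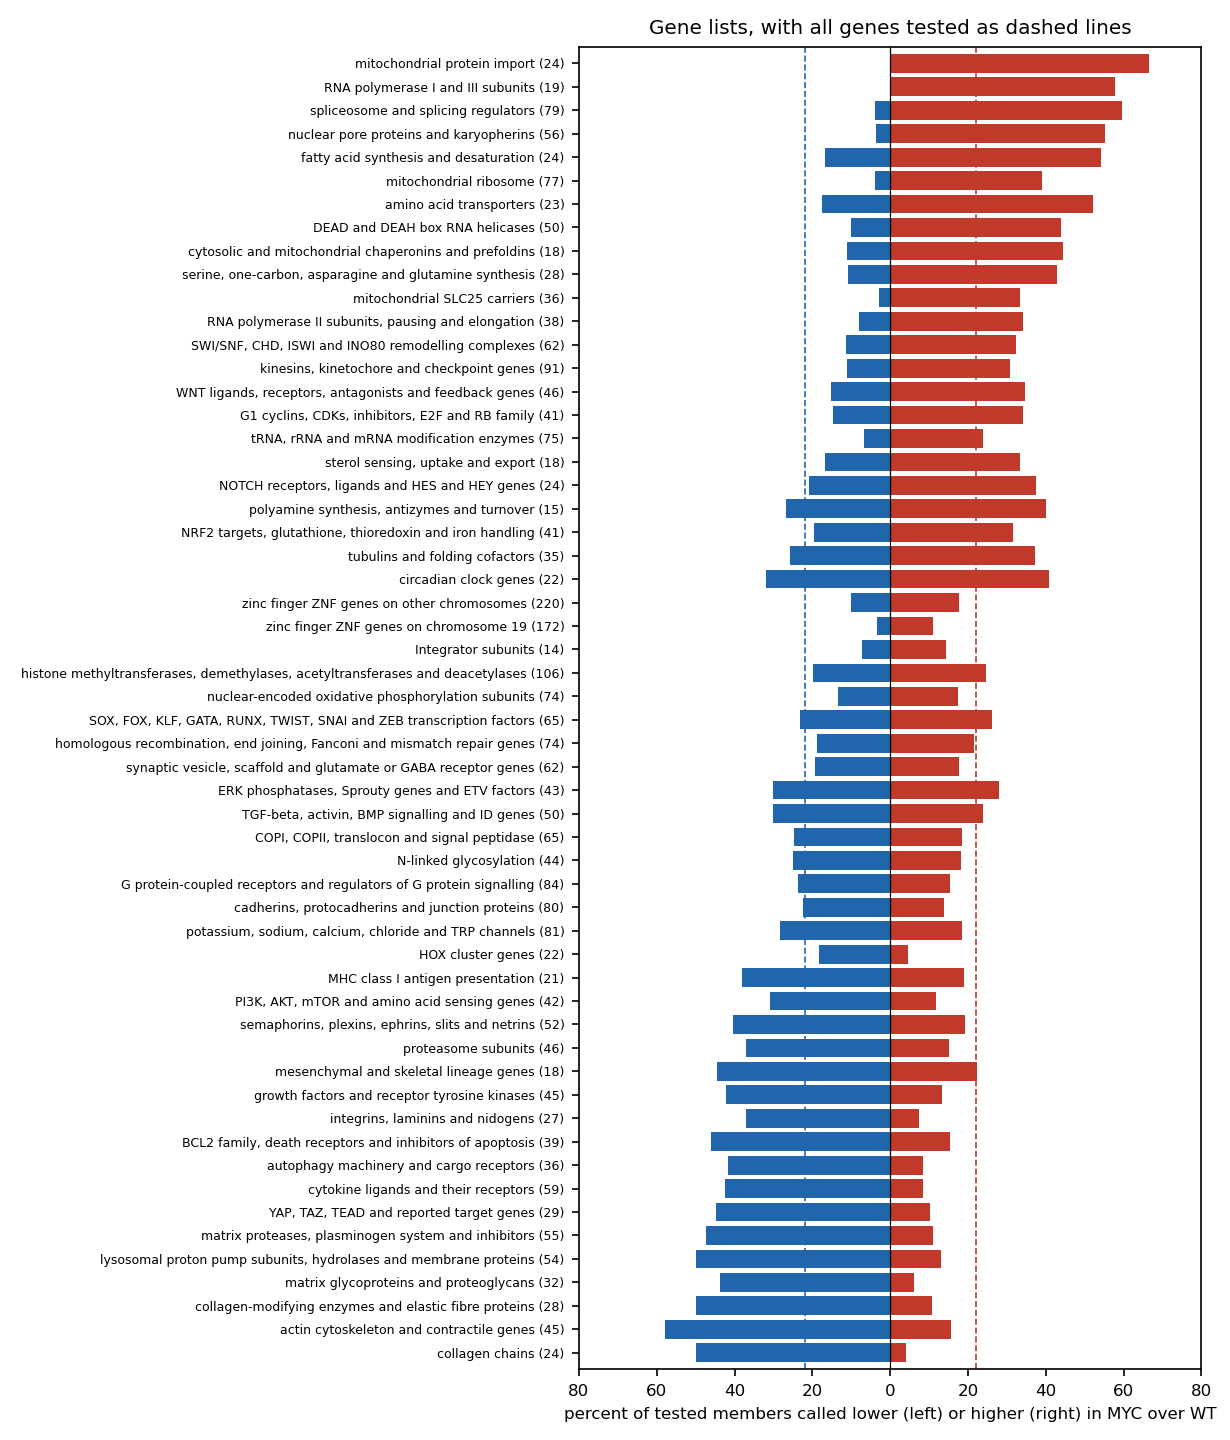
Percent of tested members called lower (blue, left) or higher (red, right) in MYC over WT for each gene list described in the text, number tested in parentheses, with dashed lines at 21.8% and 22.2% for all genes. Lists are in order of the percent called higher minus the percent called lower, with mitochondrial import first and collagen chains last.

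Calls also varied with the span of the gene, its level and its chromosome. Genes spanning over 200 kb had fewer rises and more falls than all genes, with 12.5% called higher, 31.4% called lower and a median of -0.28 over 803 genes, which was 0.19 on the deposited scale. In the 4 shorter classes the median lay between -0.02 and 0.03. In MYC over Zab the long genes had a median of 0.17 and those up to 5 kb of -0.34. By level, 3.72% were called higher and 17% lower up to 5 CPM, against 47.1% and 20.8% at 100 to 500 CPM. Low genes pass the filter through the group where they are higher, and their tests have less power.

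By chromosome, 22 and 16 had the most rises, with 33.8% of 293 and 31.6% of 531 genes called higher. Chromosome 13 had the fewest falls, 9.79% of 194 genes, and a median of 0.18. On the X chromosome 14.9% of 430 genes were called higher and 24.9% lower, with a median of -0.14, while on chromosome 11 the falls reached 27.8%. Neighbouring genes are not replicates and no test was made of these shares.

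**Figure D5:**
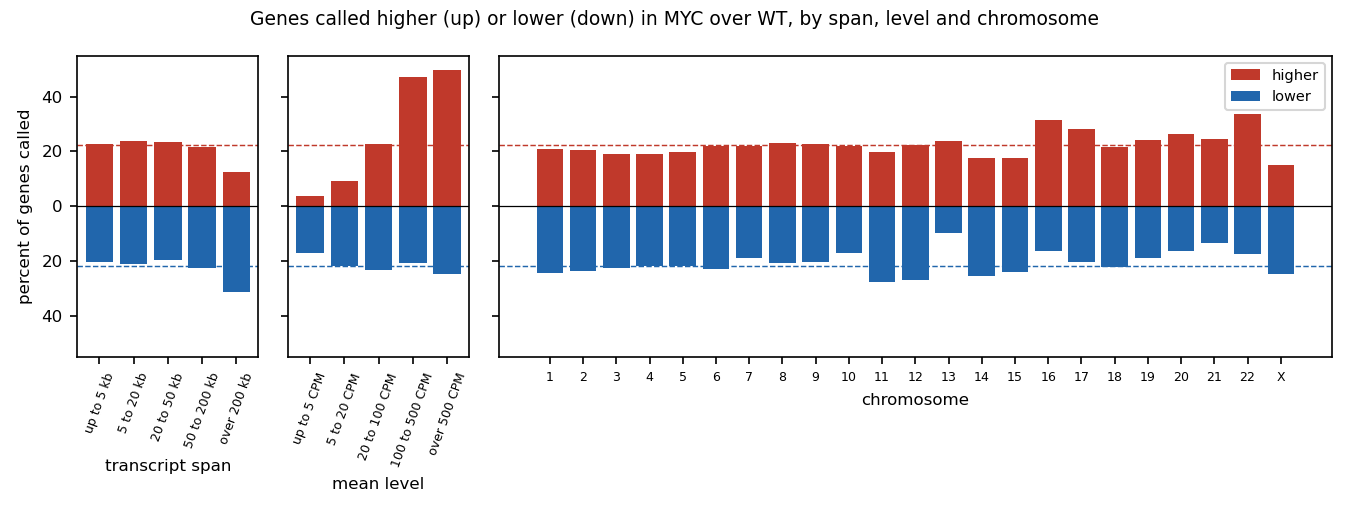
Percent of genes called higher (red, up) and lower (blue, down) in MYC over WT by transcript span (left), mean level (middle) and chromosome (right), with dashed lines at the shares of all genes. Long genes show the lower bar reaching 31.4%, and the share called higher rises with level.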

How the data were processed

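Per the submitters' processing notes, the tools were STAR, bedtools 2.29.2, SAMtools 1.11 and Trim Galore 0.6.6 and the builds hg19 and dm6, in roles not stated. Per the file headers, the authors ran HOMER on the exons of coding genes (RefSeq, hg19), took reads of the opposite strand and kept 1 transcript per symbol in each library. The deposited values are a signal, whole reads multiplied by a factor per library, and dividing by the step recovered whole reads for 99.96% to 100% of values within 0.02 reads. Reads mostly come in twos, as 77.2% to 82.7% of values from 1 to 20 reads were even.

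CPM with TMM scaling (edgeR 4.0.16) were taken from these values, and genes were kept by filterByExpr with its minimum of 10 reads. All 8 libraries entered 1 limma 3.58.1 fit with trend on log2(CPM + 1), with a term per group and 4 residual degrees of freedom, in R 4.3.3. Fold changes on that scale understate those of low genes, and "-fold" values divide group means of CPM. Calls needed a p below 0.05 after Benjamini-Hochberg adjustment over all genes tested. Count tests on the recovered reads (edgeR, DESeq2 1.42.0) were alternatives, as were other scalings, filters, pseudocounts of 0.25 and 4, a replicate block and leaving out each library. The method was tested on simulated reads.

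The members and the 62 gene lists, with 2927 tested genes, were chosen with earlier results of these data known, so list counts are descriptions and no set test was made. Genes named are the 15 largest rises and falls whose libraries do not overlap, at 5 CPM or more on average, the 10 largest of each at 200 CPM or more, and MYC, MAX, ADAR, SUPT16H and SSRP1. The 10 most abundant genes were added, and from each list 3 called members in the main direction and 2 in the other by smallest p. Some of these are not reported here, and the promoters printed and the X-linked genes were chosen after their values were seen. Promoters came from a RefSeq table by gene symbol, first entry. Replicate numbers did not pair the libraries, with correlations of deviations between -0.0262 and 0.00989. Genes with near-identical copies, where reads could be split, are uncertain.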

Additional observations from a re-analysis of the deposited data

Results flagged for a closer look

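The libraries labelled MYC and WT and those labelled MYC_Zab and Zab give the same contrast of labels in 2 settings. For 48 of the 49 genes named among those of largest change and MYC, MAX, ADAR and FACT genes, the change differed between these settings by the limma fit (MYC over WT minus MYC_Zab over Zab, adjusted p under 0.05), and EPHA8 did not pass, at 1.75 (adjusted p = 0.0639 by limma). Most of the 49 were chosen for a large change of MYC over WT, which is a part of this difference. Their count was therefore largely set by the choice and is not a result about them. Over all genes tested the change differed for 6363 (53.1%). The libraries labelled MYC_Zab had MYC at the level of WT and ADAR far above Zab, so the contrast of labels was not the same contrast of MYC levels.

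The difference, in log2 units, was 3.48 for MYC, -12.08 for ADAR and 0.60 for MAX, and of the FACT subunits 0.90 for SSRP1 and -0.45 for SUPT16H.

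Among the largest rises it was 4.74 for INSIG1, 4.40 for PDE1B, 4.07 for OPRL1 and 3.72 for KCTD12. It was 3.54 for SLC1A3, 3.50 for CAMKV, 3.44 for THRA, 3.38 for SYT7 and 3.09 for GABRA5, and for SEMA3G, PDZRN3 and DNAAF3 it was 2.97, 2.38 and 2.32. Among the rises at high level the values were 3.32 for CBX6, 3.24 for SCD, 3.0 for DDIT4, 2.84 for FASN and 2.27 for SLC6A8. USP36 stood at 1.94, SLC16A1 at 1.77, STARD7 at 1.71 and ARC at 1.23.

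Among the largest falls the difference was -6.26 for ESM1, -6.24 for MMP3, -5.77 for INHBA, -5.50 for ANKRD1 and -5.15 for KRTAP2-3. It was -5.08 for SLFN5, -4.79 for EDN1, -4.77 for TRIML2, -4.65 for NAV3 and -3.98 for COL5A1. KRT34 stood at -3.87, CXCL8 at -3.20, IL1A at -3.03 and IGFBP5 at -2.82. Among the falls at high level it was -2.99 for CCN2, -2.44 for FN1, -2.38 for THBS1 and -2.11 for LGALS1. It was smaller for AXL at -1.85, SMTN at -1.79 and KRT81 at -1.12, and smallest of these 48 for TGM2, at -0.28.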

How the results depend on the processing

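Of the counts given for MYC over WT, the choice of scale moved the most. Against 2663 genes higher and 2613 lower, the deposited scale gave 5838 and 1149, and at least 2-fold 2395 and 643 against 790 and 1261. For MYC over Zab it gave 8999 and 599 against 3547 and 3202. Taking WT and MYC_Zab libraries 2 by 2 as single samples gave 1580 lower. On the deposited scale EEF1A1 stood at 0.19 and VIM at 0.077, opposite to the TMM scale, though VIM did not pass the test. Among only the 6415 genes with the same transcript in all 8 libraries, MYC over WT gave 1669 and 1394, 438 and 596 at least 2-fold, MYC over Zab 1886 and 1878, and 3582 differed between MYC over WT and MYC_Zab over Zab. The edgeR test on the recovered reads gave 2912 and 2864 and DESeq2 2331 and 2273. With 1 library left out at a time, the counts ran from 1978 to 2189 higher and 1908 to 2003 lower, and the median of genes over 200 kb minus that of all genes from -0.27 to -0.24, against -0.28 with all. Of 3215 pairs of a gene named in the text and an alternative, 3202 kept direction and call. Only 130 of the 193 named genes entered the setting with the same transcript in all 8 libraries, so the others were not checked there. Depth limits genes of a few CPM, which rest on few reads.

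With the replicate block, 2678 genes were higher and 2609 lower, and the block changed no call of a named gene. The shared numbers did not pair the libraries.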

Other observations

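A set of neighbouring genes on the X chromosome, chosen after its values were seen, gave falls and no rises. The ARMCX, GPRASP, BEX and TCEAL genes lie close together, and ARMCX proteins are known from the transport of mitochondria. They lie in hg19 on chromosome X between 100743031 and 102885876. Of 23 in the files 20 were tested, and 0 were higher (0 also at an unadjusted p under 0.05 by limma, and by edgeR and DESeq2) and 12 lower in MYC over WT, where 21.8% of all genes were lower. Their median log2 change was -0.98, -0.52 on the deposited scale and -0.58 in MYC over Zab. The positions are the ends of the set itself. ARMCX2 was at 120.2 and 120.1 CPM in WT and 46.4 and 41.9 in MYC, and BEX1 at 51.4 and 54.2 and 11.4 and 19.97. GPRASP2 and ARMCX5-GPRASP2 overlap and share reads, and near-identical copies could do so too, so single members are uncertain, and no test was made of the set.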
